A study of Mus musculus with 5 samples.

Results

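The TREM2–APOE disease-associated genes are 10 listed genes: Trem2, Tyrobp, Apoe, Lpl, Cst7, Axl, Itgax, Clec7a, Spp1 and Gpnmb. They were chosen by name, with earlier results of these data known, among the 32285 genes of the count tables. Of the 10, 9 were analysed. Clec7a, which encodes the glucan receptor Dectin-1, was not analysed here. On GRCm38.p6, the patched form of the mm10 build of the files, Tyrobp (chr7:30413782-30417582), Apoe (chr7:19696244-19701310), Axl (chr7:25756500-25788924) and Itgax (chr7:128129526-128150657) share a chromosome, while Trem2 (chr17:48346401-48352276) and Cst7 (chr2:150570415-150578944) lie elsewhere. All are protein-coding. The genes were followed in single-nucleus RNA-seq of 5 libraries, each from 1 mouse, in which unique molecular identifiers (UMIs) count captured RNA molecules. R241E (2 libraries) denotes Tmem119-creERT2 mice with 1 wild-type and 1 R241E allele of Cgas, a form of the DNA sensor cGAS that nucleosomes no longer restrain. WT (3 libraries) denotes mice with the same driver and wild-type Cgas. The driver acts in microglia and brain macrophages, and the methods state that tamoxifen switched the allele on in young adult mice. No sample label gives the tamoxifen or the age, and the text of the paper's results names a different control genotype from its methods and the sample titles, which were followed here. Counts of the 3′ end do not read the altered codon and do not check the genotype.

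Microglia sense lipids, apoptotic cells and amyloid through TREM2, a surface receptor that signals through the adaptor TYROBP, and apolipoprotein E is both one of its ligands and a product of reactive microglia. When this axis is engaged in neurodegeneration models, microglia lower homeostatic genes and raise a set that includes the lipase gene Lpl, the cystatin gene Cst7, the phagocytic receptor gene Axl, the integrin gene Itgax and the secreted or membrane glycoprotein genes Spp1 and Gpnmb. In a healthy brain most apolipoprotein E is made by astrocytes.

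Of 9748 deposited nuclei, 9505 passed the limits on genes, UMIs and mitochondrial share, and the libraries held between 4183709 and 10130667 UMIs. Clustering was done without the 9 member genes. Clusters named as microglia-like from marker genes held 5376 nuclei, and the names below are short for nuclei that resemble each class. R241E replicates 1 and 2 contributed 1006 and 524 microglia, and WT replicates 1 to 3 contributed 924, 1471 and 1451. Levels are given in CPM, the UMIs of a gene scaled to a common total for each library's sum over a class. All 10 microglial markers were detected in every library, with summed levels of 7409 and 8436 CPM in R241E and 8599 to 9117 CPM in WT. The 2 genotypes filled different microglial clusters: clusters led by Olfr111 and Gm43821 held most WT microglia, and a cluster led by Ifi204 held 66.8% and 48.1% of R241E microglia. A cluster of 53 nuclei with pituitary markers had 51 from R241E replicate 1, and 188 nuclei whose best class led the next by too little stayed unnamed, 133 of them from the same library. Between 4 and 7 barcodes per library also occurred in another library.

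The receptor arm of the axis was strongest in macrophage-lineage nuclei. In WT, Trem2 was highest in microglia, at 246 ± 51.0 CPM (SD, n = 3), followed by the class of monocytes or neutrophils at 93.1 ± 64.9 CPM (n = 2) and border-associated macrophages at 88.9 ± 22.2 CPM (n = 3). The microglial range of 194 to 296 CPM did not overlap with the range of the next class, and the ranges of those following 2 classes overlapped each other. Astrocytes lay lowest, at 13.6 ± 1.55 CPM. Tyrobp, the adaptor shared by many activating receptors of myeloid and natural killer cells, was highest in the monocyte or neutrophil class, at 846 ± 5.13 CPM (n = 2). It reached 307 CPM in the lymphocytes of WT replicate 3, 199 ± 54.7 CPM in border-associated macrophages and 174 ± 48.1 CPM in microglia, and the last pair of ranges overlapped. The 5 non-immune classes with all libraries measured lay between 13.2 and 25.4 CPM on average for Tyrobp. The monocyte or neutrophil class was led by Igkc, Cd74 and H2-Aa as well as by S100a8 and S100a9, so it mixes cell kinds, and it was too small in WT replicate 1 to be tested.

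Apoe had another order. In WT it was highest in border-associated macrophages, at 2380 ± 685 CPM (n = 3), the monocyte or neutrophil class, at 1766 ± 785 CPM (n = 2), and astrocytes, at 1670 ± 429 CPM, and each of these ranges overlapped the next. Fibroblasts followed at 300.5 ± 65.7 CPM. Microglia carried 85.3 ± 22.7 CPM, between mural cells at 96.1 ± 27.3 CPM and neurons at 64.3 ± 38.3 CPM, and oligodendrocytes stood higher at 136 ± 38.7 CPM. None of these 4 ranges was separate from its neighbour. Oligodendrocytes and neurons are not main sources of Apoe, and the microglial level of Apoe overlapped with both.

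Axl, a receptor tyrosine kinase that binds phosphatidylserine through the bridging protein GAS6, was near 0 in WT microglia, at 2.76 ± 0.474 CPM. The WT monocyte or neutrophil class had 159 ± 63.6 CPM (n = 2), mural cells 116 ± 68.4 CPM, fibroblasts 67.8 ± 26.8 CPM, border-associated macrophages 35.1 ± 10.4 CPM and astrocytes 29.1 ± 5.41 CPM. Among these 5 classes each range overlapped the next, and the microglial range lay below the astrocyte range. Spp1, the gene of the matrix protein osteopontin, was carried by vascular and meningeal nuclei, at 108 ± 139 CPM in mural cells and 96.3 ± 18.9 CPM in fibroblasts. The mural mean of Spp1 rested on WT replicate 3, which had 268 CPM against 26.0 and 29.9 CPM in the other two. Lpl was highest in WT fibroblasts, at 24.3 ± 3.701 CPM, and stood at 4.45 ± 3.27 CPM in microglia. Cst7, an inhibitor of lysosomal cysteine proteases, was mainly a lymphocyte transcript, with 126.5 CPM in the lymphocytes of WT replicate 3 and 61.4 and 180.4 CPM in those of R241E replicates 1 and 2. Gpnmb, a lysosomal and surface glycoprotein gene, reached 13.4 ± 18.4 CPM in WT astrocytes, where WT replicate 2 alone gave 34.4 CPM from 9 UMIs.

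**Figure D1:**
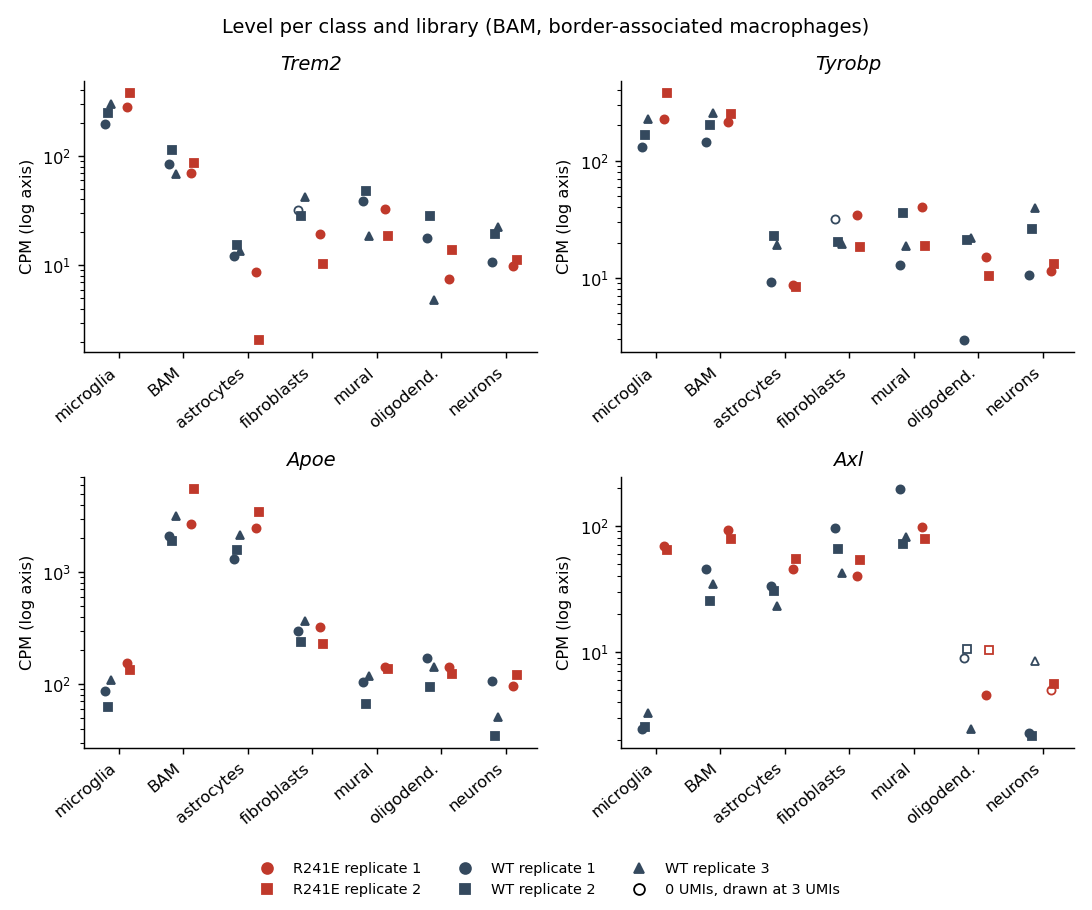
CPM of 4 members (log axes) in each class with at least 20 nuclei in all libraries, 1 point per library, R241E in red and WT in dark grey, with open points for libraries at 0 UMIs drawn at the level of 3 UMIs. Trem2 and Tyrobp stand apart in microglia and border-associated macrophages, Apoe in border-associated macrophages and astrocytes, and Axl separates the genotypes most clearly in microglia.

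The question of the genotype comparison was what active cGAS in microglia does to these transcripts. Of the 10 listed genes, 5 were called higher in R241E microglia (Axl, Cst7, Itgax, Apoe and Tyrobp) and none lower, by edgeR's quasi-likelihood test on UMIs summed per library at an adjusted p under 0.05. Over all 12727 genes tested in microglia, 6.05% were called higher and 3.25% lower. Since the members were chosen with earlier results of these data known, their excess over this share is a description and not independent support. Trem2 and Lpl were tested and not called, Spp1 and Gpnmb were too low to be tested, and Clec7a was not analysed. Cst7 and Itgax reached the filter on low counts, 3.14 CPM in at least 2 libraries, in R241E libraries only, and Axl reached it in both R241E libraries and 1 WT library.

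**Figure D2:**
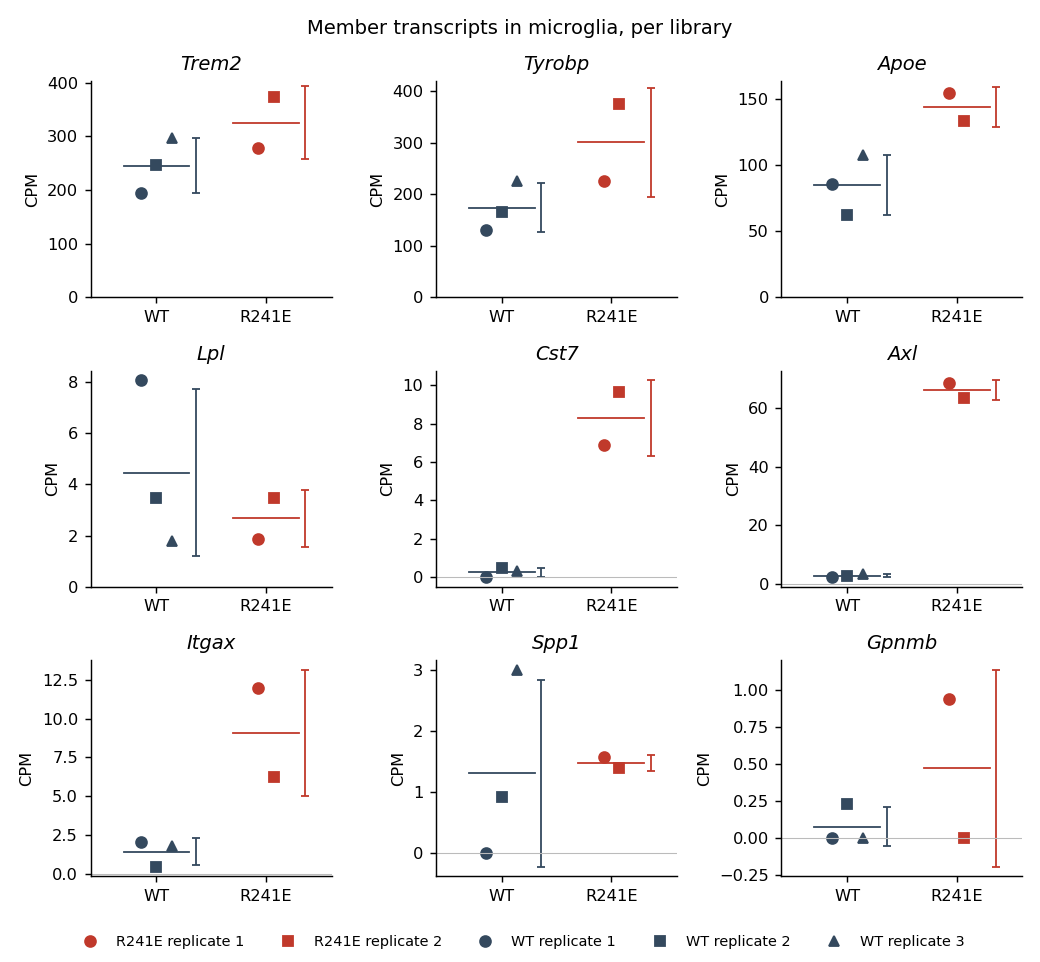
CPM of the 9 measured members in microglia (linear axes), 1 point per library with the group mean as a line and its SD as a bar (n = 2 for R241E, n = 3 for WT). Axl, Cst7, Itgax and Apoe separate the genotypes, the lowest R241E library touches the highest WT library for Tyrobp, and Trem2, Lpl, Spp1 and Gpnmb overlap.

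Axl had the smallest adjusted p of the members. It stood at 68.5 and 63.6 CPM in R241E microglia and at 2.43, 2.54 and 3.30 CPM in WT, from 218 and 92 UMIs against 6, 11 and 11. The lowest R241E library was far above the highest WT library. The log2 fold change was 4.55 ± 0.21 (SE, adjusted p = 1.13e-09), and it stayed between 4.48 and 4.69 when any 1 library was left out. Axl was called in all 16 alternative fits. In R241E, microglia thereby lay below border-associated macrophages (91.9 and 78.6 CPM) and mural cells (98.5 and 78.1 CPM) and above astrocytes (45.4 and 54.1 CPM) for Axl, without overlap with any of the 3.

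Cst7 had 6.91 and 9.69 CPM in R241E microglia and 0, 0.461 and 0.300 CPM in WT, from 22 and 14 UMIs against 0, 2 and 1. Every R241E library was above every WT library, as held for 20.4% of all genes tested. Its log2 fold change of 4.55 ± 0.63 (adjusted p = 1.73e-04) rests on 3 WT UMIs in all, so its size is poorly fixed, and it lay between 4.19 and 5.18 with any 1 library left out. Lymphocyte markers moved with it: their sum in microglia was 16.3 and 6.92 CPM in R241E and 2.54 to 4.80 CPM in WT, and their part in the Cst7 difference was not tested. Itgax, the gene of integrin CD11c, had 11.9 and 6.23 CPM in R241E and 2.03, 0.461 and 1.80 CPM in WT. The genotypes did not overlap, and R241E replicate 2 held only 9 UMIs. The log2 fold change of Itgax was 2.86 ± 0.51 (adjusted p = 1.59e-03), and without R241E replicate 1 it was 2.19 and no longer called (adjusted p = 0.209).

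The stretch before the start of these 3 genes is shown because they rose together, beside that of Trem2, the receptor of the axis, which was not called. The sequences are from RefSeq on GRCm38.p6, cover up to 250 bases before a start site and stop where the annotated gene begins, and capitals mark a motif match. The Axl stretch is chr7:25788925-25788983 on the minus strand. On the plus strand are those of Cst7 (chr2:150570165-150570414), Itgax (chr7:128129300-128129525) and Trem2 (chr17:48346151-48346400).
Axl: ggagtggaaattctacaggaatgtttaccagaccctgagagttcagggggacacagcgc
Cst7: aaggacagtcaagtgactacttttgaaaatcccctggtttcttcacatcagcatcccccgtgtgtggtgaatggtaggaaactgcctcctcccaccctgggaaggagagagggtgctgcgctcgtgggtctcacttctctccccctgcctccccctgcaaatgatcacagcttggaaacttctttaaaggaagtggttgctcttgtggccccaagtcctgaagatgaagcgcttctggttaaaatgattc
Itgax: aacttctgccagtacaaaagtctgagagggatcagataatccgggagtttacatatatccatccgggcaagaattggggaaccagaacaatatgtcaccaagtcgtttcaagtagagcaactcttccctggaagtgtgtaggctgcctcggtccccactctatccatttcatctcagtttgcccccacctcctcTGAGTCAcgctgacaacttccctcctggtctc
Trem2: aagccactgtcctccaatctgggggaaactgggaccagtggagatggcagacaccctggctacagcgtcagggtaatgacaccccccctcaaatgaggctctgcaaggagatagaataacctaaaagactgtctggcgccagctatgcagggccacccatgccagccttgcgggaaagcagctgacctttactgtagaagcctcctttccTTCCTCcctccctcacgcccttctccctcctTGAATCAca
Promoters were matched for 8 of the 10 genes (all but Tyrobp and Lpl), at 12 start sites, and 5 motifs were searched on both strands in the 250 bases before each start. The core of the interferon-stimulated response element, 2 runs of GAAA with 2 bases between them, was found in 1 of the 12, at Spp1, and in 2.98% of all 32851 promoters. The STAT core TTCNNNGAA (7.02% of all) and the MITF and TFEB core TCACGTGA (0.785%) matched none. The PU.1 core GAGGAA (23.3% of all) matched 7 of the 12, at Apoe, Axl, Clec7a, Spp1 and Trem2. The Clec7a windows overlap and count the same match again. The Apoe matches lie inside the annotated gene. So does the Axl match, in the part of its window that is not shown. The AP-1 core TGANTCA (6.75% of all) matched at Itgax and Trem2. In the Trem2 window the PU.1 match is on the opposite strand, as TTCCTC. Cst7 held none of the 5.

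Apoe and its receptor pair differed less. Apoe had 154.5 and 133.5 CPM in R241E microglia and 85.9, 62.3 and 108 CPM in WT, without overlap, and a log2 fold change of 0.77 ± 0.17 (adjusted p = 7.03e-03). Without R241E replicate 1 it was 0.63 and not called (adjusted p = 0.177). In the same libraries oligodendrocytes had 143 and 124 CPM in R241E and 171, 94.7 and 143 CPM in WT, so microglia stood slightly above them in R241E and below them in WT. The summed astrocyte markers in the same microglia overlapped between genotypes (269 to 292 CPM in R241E, 266 to 339 CPM in WT), those of border-associated macrophages were lower in R241E (98.3 and 143 CPM) than in WT (211 to 240 CPM), and those of oligodendrocytes were higher (218 and 304 CPM against 127 to 144 CPM). No marker of these 3 lists was at 0 in every library, and their part in the Apoe difference was not tested.

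Tyrobp had 226 and 375 CPM in R241E microglia and 130.4, 165 and 225.5 CPM in WT. The lowest R241E library, at 226.1 CPM, barely passed WT replicate 3. The log2 fold change of 0.74 ± 0.20 was called (adjusted p = 0.0257). It was not called without R241E replicate 2 (0.36, adjusted p = 0.407), without WT replicate 1 (adjusted p = 0.113), without WT replicate 2 (adjusted p = 0.0756) or by DESeq2's Wald test (adjusted p = 0.335). Trem2 had 278 and 374 CPM in R241E and 194, 247 and 296 CPM in WT, and WT replicate 3 exceeded R241E replicate 1. Its log2 fold change of 0.37 ± 0.15 was not called (adjusted p = 0.159, 95% interval 0.08 to 0.66 before adjustment), and without WT replicate 3 it was 0.51 and called (adjusted p = 0.0184).

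Lpl, which releases fatty acids from lipoproteins, had 1.89 and 3.46 CPM in R241E microglia and 8.10, 3.46 and 1.80 CPM in WT. The genotypes overlapped, and the log2 fold change of -0.79 ± 0.65 was not called (adjusted p = 0.565, 95% interval -2.06 to 0.48). Spp1 gave 5 and 2 UMIs in R241E microglia and 0, 4 and 10 in WT. Gpnmb gave 3 and 0 UMIs in R241E and 0, 1 and 0 in WT. At this depth no difference was detectable for Spp1 or Gpnmb.

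Trem2 and Tyrobp were highest in 1 cluster of microglia. This cluster was led by the complement genes C1qc, C1qb and C1qa and by the cathepsin gene Ctss, and made up 14.8% and 23.1% of R241E microglia against 0.433%, 1.22% and 3.24% of WT microglia. Trem2 stood there at 644 and 689 CPM in R241E and 898 CPM in WT replicate 3, and Tyrobp at 563, 780 and 684 CPM in the same 3 libraries. In the cluster led by Ifi204, which held most R241E microglia of replicate 1, Trem2 had 215 and 270 CPM and Tyrobp 161 and 230.4 CPM. Apoe had 340 and 205 CPM in the complement-led cluster in R241E, but 96.7 CPM there in WT replicate 3, below the 122 and 120 CPM of the clusters led by Gm43821 and Ifi204 in that library, and in R241E replicate 2 the cluster led by Ifi207 stood higher, at 226.5 CPM. The share of UMIs from ribosomal protein genes in the complement-led cluster was 1.41% and 1.56% in R241E and 1.08% in WT replicate 3, against 0.540% and 0.603% in the other R241E microglia and 0.338% to 0.508% in the other WT microglia. Its mitochondrial share was 0.221%, 0.192% and 0.138%, against 0.0533% to 0.0675% elsewhere, and the part of these RNA differences in the result was not tested.

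Without that cluster, a choice made after the data were seen, the log2 fold change was 0.27 for Tyrobp (adjusted p = 0.422), 0.50 for Apoe (adjusted p = 0.108) and 0.03 for Trem2 (adjusted p = 0.954), so none of the 3 was called. The removed nuclei came mostly from R241E, with high Trem2 and Tyrobp, and high Apoe in R241E. Taking them out lowers these fold changes by construction, so the drop is not a separate result. Axl (4.64), Cst7 (4.74) and Itgax (2.88) were called without that cluster, with adjusted p-values of 1.84e-10, 1.19e-04 and 1.05e-03.

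Interferon genes marked the nuclei with the most Axl. Every nucleus was thinned to 1000 UMIs. A nucleus was called interferon-high when it then held at least 3 UMIs summed over the study's 28 interferon genes, none of them a member. This held for 43.0% and 33.7% of R241E microglia and for 2.56% to 2.67% of WT microglia. Axl had 102 and 112 CPM in interferon-high R241E microglia and 43.1 and 38.9 CPM in the other R241E microglia, and the Poisson intervals of the sets, which cover counting error only, did not overlap in either library. The other R241E microglia were still above the other WT microglia, which had 2.52, 1.90 and 3.46 CPM. Apoe had 182 and 162 CPM against 134 and 109 CPM, with overlapping intervals in replicate 2. Trem2 had 257 and 329 CPM in the interferon-high nuclei against 294 and 396 CPM, with overlapping intervals in both libraries. Tyrobp had 218 and 313 CPM in the interferon-high nuclei against 233 and 414 CPM. Its intervals overlapped in replicate 1 but not in replicate 2, where the interferon-high nuclei were lower. Cst7 had 10.97 and 11.97 CPM against 3.87 and 8.65 CPM, with overlapping intervals, and Itgax had 10.2 and 5.99 CPM against 13.3 and 6.49 CPM. With 2 R241E libraries no test between these sets was made.

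**Figure D3:**
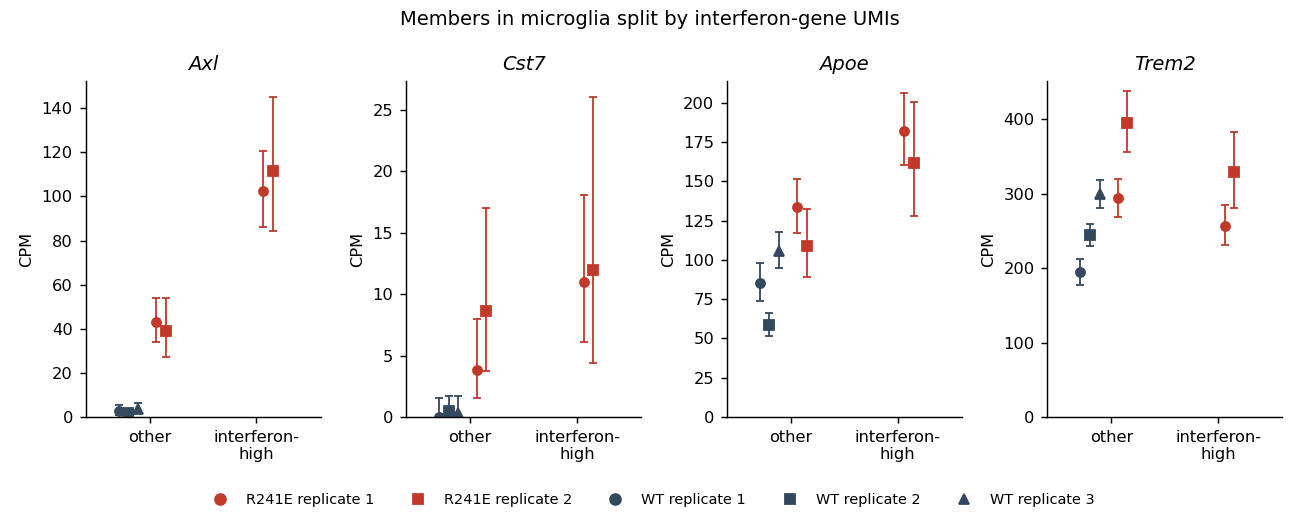
CPM of 4 members in microglia with fewer than 3 (other) and at least 3 (interferon-high) UMIs summed over the interferon genes after thinning. There is 1 point per library with its 95% Poisson interval, and WT interferon-high nuclei are left out because each library had under 40. Axl is higher in interferon-high nuclei of both R241E libraries and is above WT in the other R241E nuclei too.

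The strongest Axl and Cst7 signals came from a cluster led by Ifi207, Oasl1 and Cxcl10, which made up 9.74% and 7.25% of R241E microglia and at most 0.272% of WT microglia. Axl reached 229 and 302 CPM there, and Cst7 25.4 and 45.3 CPM. With that cluster removed, again a choice made after the data were seen, Axl (4.13) and Cst7 (3.92) were called with adjusted p-values of 1.10e-08 and 2.21e-03. The removed nuclei came mostly from R241E and were high in both genes. Both fold changes therefore fall by construction, and the drop is not a separate result.

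Shares of nuclei with a UMI were compared after thinning to 1000 UMIs. Axl was detected in 7.32% and 5.62% of R241E microglia and in 0.111%, 0.207% and 0.144% of WT microglia, while oligodendrocytes, which should lack it, gave 0% to 0.840% and neurons 0% to 0.741%. Both R241E shares of Axl were above all of these. Cst7 was detected in 0.802% and 1.20% of R241E microglia against 0%, 0.0691% and 0% of WT, and Itgax in 1.10% and 0.402% against 0.222%, 0% and 0.144%. Trem2 was seen in 24.0% and 26.3% of R241E microglia and in 18.4%, 21.8% and 23.3% of WT, against 0% to 2.22% of neurons and oligodendrocytes. Tyrobp was seen in 20.5% and 26.9% of R241E microglia and in 13.4%, 16.6% and 20.6% of WT, which overlapped. Apoe was seen in 12.1% and 11.04% of R241E microglia and in 7.88%, 6.08% and 8.94% of WT. Oligodendrocytes of the same libraries gave more (14.5% and 13.04%, then 10.9%, 7.69% and 12.6%), while neurons gave more in R241E replicate 1 and WT replicate 1 (12.96% and 10.7%) and less in the other 3 libraries (5.93%, 2.04% and 2.08%). The microglial share of Apoe was thus above neurons in some libraries and above oligodendrocytes in none, and how much of it is free RNA was not tested.

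The R241E shares lay above all WT shares for 5 of the 9 measured members, Trem2, Apoe, Cst7, Axl and Itgax, and below them for none. Trem2 overlapped when nuclei were thinned to 500 UMIs (13.4% in R241E replicate 1 against 14.1% in WT replicate 3) or to 2000 UMIs (35.99% against 38.3%). Among the 12727 genes tested in microglia, 17.5% had higher and 15.8% lower shares without overlap. The smallest p of a two-sided exact permutation test of 2 against 3 libraries is 0.1, so no share could pass 0.05. That p was reached by Axl (6.47% ± 1.20 against 0.154% ± 0.0489), Cst7, Itgax and Apoe, and Trem2 gave 0.2 since another split of its 5 shares had a larger difference of means.

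Several of the less abundant members were seldom detected in the same nucleus. Of the 6 members with low levels in WT microglia (Lpl, Cst7, Axl, Itgax, Spp1 and Gpnmb), at least 1 was detected in 8.48% ± 1.20 of R241E microglia (SD, n = 2) and 0.684% ± 0.117 of WT microglia (n = 3). Most of this R241E share was Axl, detected in 73 of 93 such nuclei in replicate 1 and 28 of 38 in replicate 2. In WT, Axl was detected in 1 of 7, 3 of 8 and 2 of 10 such nuclei. At least 2 of the 6 were detected in 1 of 997 nuclei of R241E replicate 1 and in 0 of 498 nuclei of replicate 2, and in 0 of 901, 0 of 1447 and 0 of 1387 WT nuclei. A count of 0 allows a share of up to 0.602% in R241E replicate 2 and of up to 0.333%, 0.207% and 0.216% in the WT libraries, for counting error only, and the same limits hold for the members at 0% in microglia above. Without thinning the latter share was 1.69% and 1.53% in R241E and 0.108% to 0.138% in WT. The share of nuclei with several members detected thus moved with the number of UMIs kept. It cannot show how many nuclei carry several, since a member can be present and go undetected at this depth.

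Outside microglia 0 of 16 pairs of member and class were called by edgeR, DESeq2 or limma-voom, and 4 had an unadjusted p under 0.05 by edgeR. Few genes were called in these 6 classes at all: 0.988% of those tested in border-associated macrophages, 0.430% in astrocytes, 0.285% in oligodendrocytes, 0.0172% in fibroblasts, 0.0113% in neurons and 0% in mural cells. Apoe came nearest. It had 2460 and 3413 CPM in R241E astrocytes and 1305, 1562 and 2143 CPM in WT, without overlap (10.1% of all genes tested in astrocytes were higher in this way), and a log2 fold change of 0.85 ± 0.23 (adjusted p = 0.179, 95% interval 0.41 to 1.3). In border-associated macrophages Apoe had 2682 and 5488 CPM in R241E and 2077, 1899 and 3163 CPM in WT, with overlap, and 0.77 ± 0.21 (adjusted p = 0.0803), and without R241E replicate 1 it was 1.22 and called (adjusted p = 1.20e-07), as it was without WT replicate 3 (1.03, adjusted p = 0.0261). In oligodendrocytes the Apoe difference was -0.02 ± 0.24 (adjusted p = 1.00), of changing sign in the alternatives.

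Axl in border-associated macrophages had 91.9 and 78.6 CPM in R241E and 45.7, 25.1 and 34.5 CPM in WT. The genotypes did not overlap, as for 11.5% of all genes tested there, but the R241E libraries held 30 and 10 UMIs, and the log2 fold change of 1.31 ± 0.47 was not called (adjusted p = 0.318). In astrocytes Axl had 45.4 and 54.1 CPM against 33.6, 30.6 and 23.1 CPM, a log2 fold change of 0.84 ± 0.34 (adjusted p = 0.449). Mural cells and fibroblasts overlapped for Axl.

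The effects were then compared directly as log2 fold changes, which depend on the WT level. Mean Axl in WT and R241E was 2.76 and 66.1 CPM in microglia and 35.1 and 85.3 CPM in border-associated macrophages. In astrocytes it was 29.1 and 49.75 CPM. The effect on Axl was larger in microglia than in border-associated macrophages by 3.14 ± 0.64 on the log2 scale (adjusted p = 2.57e-04) and larger than in astrocytes by 3.65 ± 0.50 (adjusted p = 8.16e-07), in fits that called 0.788% and 0.764% of all genes in either direction. The first difference was not called without R241E replicate 1 (3.27, adjusted p = 0.0545). Apoe differed in effect by 0.06 ± 0.17 from border-associated macrophages (95% interval -0.27 to 0.39) and by -0.12 ± 0.25 from astrocytes (-0.60 to 0.36), and neither was called (adjusted p = 1.00 and 0.964). The 2 R241E libraries went apart for Apoe: the difference from border-associated macrophages was -0.57 without R241E replicate 1 and 0.60 without R241E replicate 2, both outside that interval and not called (adjusted p = 0.503 and 0.194). The difference from astrocytes was -0.50 and 0.19 in these fits. Trem2 and Tyrobp differed from border-associated macrophages by 0.48 ± 0.37 and 0.41 ± 0.26, also not called (adjusted p = 0.928 and 0.883).

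The wider pathway was followed in microglia through lists of genes that were no members. Of 19 genes of TREM2 and Dectin-1 signalling, 18 were tested and 1 was called higher, close to the 6.05% over all genes tested. It was Lat2 (0.84 ± 0.14, adjusted p = 9.39e-04), an adaptor of immune receptor signalling. The median log2 fold change of this list was 0.01, close to -0.0047 over all genes tested. Syk (-0.14), Plcg2 (0.21) and Inpp5d (-0.14), which carry or restrain the TYROBP signal, were not called.

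Of 19 ligands, partners and regulators of the members, 16 were tested, 4 were called higher and 2 lower, beside 6.05% and 3.25% of all genes tested. The higher ones were the cathepsin genes Ctsc (0.71), Ctsh (0.69) and Ctsl (0.70), encoding lysosomal proteases, and Cd44 (3.09 ± 0.49), which encodes a receptor for osteopontin. Cd44 had 10.05 and 6.92 CPM in R241E and 1.215, 0.461 and 1.499 CPM in WT. It thus reached the filter on low counts in R241E libraries only. The lower ones were Itgb3 (-0.91 ± 0.18), a subunit of an osteopontin-binding integrin, and Gas6 (-0.89 ± 0.19, adjusted p = 6.16e-03), the ligand of AXL, both named after their values were seen. Gas6 had 22.6 and 25.6 CPM in R241E microglia and 40.1, 51.0 and 38.4 CPM in WT, so the transcripts of receptor and ligand differed in opposite directions. Mertk, the related receptor, had 1956 and 2199 CPM against 2292 to 2369 CPM and was not called (-0.18, adjusted p = 0.265).

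Of 22 genes of apolipoproteins and lipid handling, 16 were tested, 2 were called higher and 1 lower (6.05% and 3.25% over all genes). Npc2, a cholesterol transporter of lysosomes (0.75 ± 0.12), and Cyp27a1, a sterol hydroxylase (0.45 ± 0.11), were called higher, and Lrp1, a receptor for apolipoprotein E (-0.45 ± 0.10, adjusted p = 6.49e-03), was called lower. The list median was -0.0043. In the TREM family 2 of 5 genes were tested, Treml2 being called higher (2.52 ± 0.35) and Treml1 lower (-1.22 ± 0.34).

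Of 24 other disease-associated genes, 22 were tested, all 22 lay above 0 and 13 were called higher, beside 6.05% of all genes tested. Their median log2 fold change was 0.80, against -0.0047 over all genes. Like the members and the other lists, these genes were chosen with earlier results of these data known. Their excess is therefore a description and not independent support. The 4 with the smallest adjusted p were Cybb (5.41 ± 0.32), the catalytic subunit of the phagocyte oxidase, B2m (2.17 ± 0.18), the light chain of class I antigen presentation, Cd52 (2.53 ± 0.22) and Lilrb4a (2.28 ± 0.24), an inhibitory receptor whose near-identical copy Lilrb4b makes its count uncertain. Cybb had 39.6 and 40.8 CPM in R241E and 0.405, 0.692 and 1.499 CPM in WT. It thus reached the filter on low counts, 3.14 CPM in at least 2 libraries, in R241E libraries only. Genes not called included Ctsd (0.61), Cd68 (0.32) and Lgals3 (1.296). Over all microglia, ribosomal protein genes gave 0.669% and 0.836% of UMIs in R241E and 0.346% to 0.533% in WT. The mitochondrial share was 0.0901% and 0.0940% in R241E and 0.05495% to 0.0673% in WT. The part of these RNA differences in the values of this list was not tested.

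Across the 21 class sums of the WT libraries (7 classes in 3 libraries), the genes most like each member by Pearson r of log2(CPM + 1) were Ctss (0.947) and Plek (0.928) for Trem2, C1qc (0.993) and Arrb2 (0.973) for Tyrobp, Colec12 (0.932) and Ifitm3 (0.918) for Axl, and Tbx18 (0.955) and Bmp4 (0.951) for Spp1. For Apoe they were Cd38 (0.919) and 1700071M16Rik (0.904). The sums share libraries and classes, so the r values describe these sums only. Cst7, Itgax, Gpnmb and Lpl had too few UMIs in these classes for their nearest genes to be read, with highest r values of 0.810, 0.838, 0.889 and 0.937.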

How the data were processed

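Nuclei sorted by the authors as DAPI-positive, NeuN-negative and Olig2-negative were sequenced with 10x Genomics 3′ chemistry. The deposited values are raw UMI counts for each gene in each nucleus, made by the authors with Cell Ranger 7.0.0 on mm10. Whether intronic reads were counted is not given in the sources used here. Groups and replicate numbers came from the sample titles, and the labels give hippocampus as the tissue. An H151 treatment text accompanies every sample, but no label assigns it, so it was not used.

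Nuclei with at least 200 and under 4500 genes, under 10000 UMIs and under 5% mitochondrial UMIs were kept. They were clustered without the members (scanpy 1.11.5), giving 25 clusters and 11 named classes. Clusters took the class with the highest mean marker fold, unless the next class lay within 0.25 on the log2 scale, a margin set after the clusters were seen. Scrublet marked 47 nuclei (0.494%) and was not relied on, so doublets were treated through the upper limits. Counts were summed per library and class, and a class needed 20 nuclei in each library to be tested (7 classes) by edgeR's quasi-likelihood test (edgeR 4.0.16, R 4.3.3, TMM, filterByExpr) with Benjamini-Hochberg adjustment over all genes. Fold changes are on the log2 scale, and their SE was taken from the F statistic. CPM values are relative to the UMIs of the class sum, not per length, since 3′ counting gives 1 UMI per molecule. The scripts were tested on simulated counts. DESeq2 1.42.0 and limma 3.58.1 served as alternatives.

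The 9 measured members are reported wherever they were tested. From the other lists the 4 called genes with the smallest adjusted p in microglia are named, and from the likeness measure the 2 nearest genes, among genes with at least 10 CPM in 1 sum. The members and lists were chosen with earlier results of these data known, and 8 of the 10 members stand on the list the study used to score disease-associated microglia. Nothing in the labels says more of the replicates than that each is 1 mouse. Shares carry counting error in addition to the spread between mice. Libraries or conditions beyond the 5 were not analysed here.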

Additional observations from a re-analysis of the deposited data

Results flagged for a closer look

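Axl differed in its R241E effect between classes by the test of the difference itself. The effect in microglia exceeded that in border-associated macrophages by 3.14 ± 0.64 on the log2 scale (edgeR quasi-likelihood, adjusted p = 2.57e-04). It exceeded that in astrocytes by 3.65 ± 0.50 (adjusted p = 8.16e-07). Axl was higher in both R241E libraries than in all 3 WT libraries in each of the 3 classes, but was called in microglia only. Such separation held for 20.4% of all genes tested in microglia, 11.5% in border-associated macrophages and 10.1% in astrocytes. The microglial WT level was 2.43 to 3.30 CPM, against 25.1 to 45.7 CPM in border-associated macrophages and 23.1 to 33.6 CPM in astrocytes. No group was large enough for a search for single outlying libraries.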

How the results depend on the processing

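The 5 members called in microglia were 3 without nuclei holding markers of other classes (4 members tested), 3 without the complement-led cluster, and 3 to 6 when libraries were left out in turn; in the other alternatives the count was 4 to 6. Trem2 was called with the replicate block (0.53, adjusted p = 1.67e-06), without the filter on low counts (0.36, adjusted p = 0.0162) and without WT replicate 3. Outside microglia the count of 0 became 2 with the replicate block and 2 without the filter, Apoe in astrocytes and in border-associated macrophages both times, and 0 to 1 with libraries left out. The 2 differences of effect between classes, both of Axl, were 1 to 2 with libraries left out. The 5 members with separate detecting shares were 4 after thinning to 2000 UMIs, 6 after thinning to 500 and without thinning, and 5 to 7 when libraries were left out. The difference in the share of microglia with 2 or more of the 6 less abundant members, 0.0502 percentage points after thinning to 1000 UMIs, was 0.906 after thinning to 2000 and 1.48 without thinning, and 0 to 0.1003 with libraries left out. With a lone R241E library its spread is assumed to equal that of WT. Deviations of same-numbered mice had correlations of 0.0989 and -0.0181. Both values rest on the same difference between the 2 R241E libraries, so they cannot show whether the replicate number marks a pairing. With the replicate number as a block, calls in microglia rose from 770 higher and 413 lower to 1230 and 834. Apoe turned in sign in 3 values that no setting called: with libraries left out, its effect in microglia was -0.57 to 0.60 relative to border-associated macrophages and -0.50 to 0.19 relative to astrocytes, and its effect in oligodendrocytes was -0.20 to 0.19, 0.0147 without the filter and 0.23 without upper limits on genes and UMIs. The cause was not tested. Of 198 single-gene refits 172 kept both direction and call and 18 changed call. Depth limits Spp1, Gpnmb, Lpl and Cst7, with at most 22 UMIs in any library's microglia.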
